A study of Mus musculus with 6 samples.

Results

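Broad promoters are open stretches around a transcription start that are longer than a typical promoter peak. In ATAC-seq peak lists of mouse white blood cells, 151 regions met the definition used here: peaks of all 6 lists on chromosomes 1 to 19 that shared 1 bp were merged, and a merged region was kept when it was at least 2500 bp wide, held a peak in every list, and had a summit within 1 kb of the start of a protein-coding transcript. The members were thus selected on the merged width of their peaks. They were 151 of 60298 merged regions, 23013 of which had a peak in every list (shared regions). A further 9958 shared regions had a coding start near a summit but were narrower, and they are called other shared promoters. The 151 regions lay at 162 coding genes, which were 1.53% of the 10600 coding genes with a shared promoter.

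ATAC-seq uses the Tn5 transposase to insert sequencing adapters into DNA that is not wrapped tightly, so that open chromatin gives many fragments. The 6 libraries were made from peripheral blood after red cell lysis. There were 3 of control mice and 3 of mice under de-acclimatization from high altitude (HADA), that is, back in normal oxygen after a stay in low oxygen. Per the study's methods the mice were male C57BL/6j bought at 8 weeks of age, and HADA mice spent 28 days in a hypobaric chamber at a simulated altitude of 6 km before they were moved to normoxia. The day of blood sampling in normoxia is not stated in the sources used here. The cells were unsorted leukocytes per the labels and methods, while the study's results text calls them mononuclear cells. The marker lists showed a mixture: 14 of 16 B cell genes had a promoter peak in 5 libraries and 6 of 16 in control 3, at least 14 of 17 T cell genes did in every library, and 7 to 11 of 14 neutrophil genes and 7 to 10 of 12 monocyte genes did. Nothing in the labels says that the samples of a group came from separate mice, so p-values measure the spread between these libraries.

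The control lists held 39769, 39176 and 32533 peaks on chromosomes 1 to 19 and the HADA lists 42911, 42500 and 44102. The background pileup over the whole genome, a measure of relative depth, ran from 1.69 to 2.05 in the control libraries and from 1.99 to 2.34 in those of HADA. Control 3 stood apart. Its list was the shortest, its summed B cell promoter pileup over background was 78.2 against 321 and 514 in the other controls and 1040 to 1191 in HADA, and its neutrophil sum was 778 against 316 and 427 in the other controls and 113 to 232 in HADA. The monocyte sums were 240 to 302 in control and 183 to 212 in the HADA libraries, the T cell sums 339 to 481 and 619 to 697, the NK cell sums 35.0 to 85.9 and 87.2 to 113, and the erythroid and platelet sums 0 to 8.3 and 23.7 to 34.2. These values move with the group, and their part in the results was not tested. A change in the share of a cell type cannot be told apart from a change within its cells in such libraries.

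At most active promoters a short stretch just upstream of the start is free of nucleosomes, and the flanking nucleosomes are positioned. Promoters in CpG islands can stay open over longer stretches. Broad domains of open chromatin or of active histone marks at starts are known from genes that set cell identity and from genes that respond quickly to signals, such as those of the AP-1 factors. In blood cells the latter class includes JUN family members, nuclear receptors of the NR4A family and the RNA-binding proteins that end cytokine messages.

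Sequences of 7 broad promoters are shown because the width and height results turn on these genes or because they represent a class: Jun and Tsc22d2 for long promoters, Mxi1 and Irf4 for promoters wider in HADA, H2-Aa for a promoter both wider and higher, Nlrp3 for one narrower and lower, and Pim1 for one narrower only. Each is the stretch of 200 bases without an exon of a coding transcript that lies nearest the median summit, read from the GRCm39 genome on the strand of the gene. Capitals mark matches to 5 motifs on either strand: the SP/KLF GC box (GGGCGG), the CCAAT box (CCAAT), the ETS core (CCGGAA), the cAMP response element (TGACGTCA) and an AP-1-like pattern (TGANTCA). In the last, N is any base, so it takes in more than the AP-1 sites TGACTCA and TGAGTCA. A match describes letters, not binding.
Jun (chr4:94940695-94940894, minus strand): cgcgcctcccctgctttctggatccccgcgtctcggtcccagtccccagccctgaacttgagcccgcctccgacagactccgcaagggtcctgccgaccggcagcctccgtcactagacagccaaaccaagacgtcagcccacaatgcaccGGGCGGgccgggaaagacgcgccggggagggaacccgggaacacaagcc
Tsc22d2 (chr3:58321936-58322135, plus strand): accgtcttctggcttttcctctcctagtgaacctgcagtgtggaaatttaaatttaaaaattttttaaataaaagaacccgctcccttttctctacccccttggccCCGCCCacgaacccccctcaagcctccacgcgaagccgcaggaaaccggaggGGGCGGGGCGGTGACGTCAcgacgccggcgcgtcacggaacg
Mxi1 (chr19:53302513-53302712, plus strand): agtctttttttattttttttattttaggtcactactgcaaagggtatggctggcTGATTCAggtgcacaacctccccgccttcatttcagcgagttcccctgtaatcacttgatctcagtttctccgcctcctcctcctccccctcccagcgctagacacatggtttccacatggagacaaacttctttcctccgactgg
Irf4 (chr13:30933009-30933208, plus strand): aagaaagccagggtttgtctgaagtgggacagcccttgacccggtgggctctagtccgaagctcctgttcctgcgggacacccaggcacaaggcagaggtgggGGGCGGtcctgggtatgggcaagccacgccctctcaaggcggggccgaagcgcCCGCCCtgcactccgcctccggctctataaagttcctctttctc
H2-Aa (chr17:34506798-34506997, minus strand): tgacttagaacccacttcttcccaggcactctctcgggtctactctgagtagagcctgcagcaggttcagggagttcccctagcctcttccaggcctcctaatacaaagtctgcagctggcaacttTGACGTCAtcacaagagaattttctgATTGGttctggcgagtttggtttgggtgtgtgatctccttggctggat
Nlrp3 (chr11:59433312-59433511, plus strand): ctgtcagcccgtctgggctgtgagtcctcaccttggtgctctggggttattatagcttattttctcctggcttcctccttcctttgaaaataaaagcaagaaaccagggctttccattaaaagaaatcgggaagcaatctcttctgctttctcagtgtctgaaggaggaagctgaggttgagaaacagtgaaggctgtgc
Pim1 (chr17:29709381-29709580, plus strand): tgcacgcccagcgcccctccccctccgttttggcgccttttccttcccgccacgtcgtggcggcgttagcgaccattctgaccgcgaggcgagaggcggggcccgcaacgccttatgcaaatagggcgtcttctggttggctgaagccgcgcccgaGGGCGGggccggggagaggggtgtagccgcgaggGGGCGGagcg

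The Jun window held 1 GC box and 19 CpG. The Tsc22d2 window held 3 GC boxes, a pair of them overlapping, and 1 cAMP response element. In Mxi1 the window was centred on the summit, 1116 bp downstream of the start. It held 1 match to the AP-1-like pattern, TGATTCA, which is not one of the 2 AP-1 sites. Irf4 had 2 GC boxes and Pim1 2 GC boxes. The H2-Aa window, which covers the bases just upstream of a class II MHC gene, held 1 cAMP response element and 1 CCAAT box in reverse. The Nlrp3 window held no match to the 5 motifs and 2 CpG.

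Merged widths ran from 2504 to 12213 bp with a median of 2762 bp, and 113 of the 151 regions were under 3 kb. Just inside the limit were Abtb2 at 2504, Klf16 at 2506 and Cxxc5 at 2507 bp, and just outside were Tagln2 at 2499, Acod1 at 2494 and Sinhcaf at 2492 bp. The widest was Flg on chromosome 3, from 93187739 to 93199951, at 12213 bp. Flg encodes filaggrin, a skin protein made of tandem repeats, and 89.7% of the 50-base windows of its region occur more than once in the genome, with 15 copies of its summit sequence. Its summit pileups were low, at 12, 32 and 15 in control and 13, 17 and 20 in the HADA libraries. Reads from such sequence cannot be placed on 1 copy. The same limit touches Speer1c, with 73.5% repeated windows, and Det1, with 94.1%. Over 10% of the windows were repeated in 13 of the 151 regions, and the other 138 gave similar width results.

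After Flg the widest regions were Tmc6 at 4330 bp, Gadd45g at 4222, Klf3 at 4163, Akna at 4146, Zfp36l1 at 3761, Ubtf at 3750, Ggta1 at 3710, Cdk6 at 3592 and the region of Cdc42se1 and Mllt11 at 3553 bp. Gadd45g is a stress-response gene, and the merged region took in 86.5% of its length. Klf3 encodes a repressor of the Krüppel-like family, Zfp36l1 a protein that destabilises AU-rich messages, Ubtf the RNA polymerase I factor UBF, and Cdk6 a kinase of the G1 phase. Tmc6 was covered over 3366, 2880 and 3179 bp in control and 3104, 3119 and 3548 bp in the HADA libraries. Klf3 was covered over 2862, 2053 and 3508 bp in control and 2624, 1784 and 1735 bp in the HADA libraries. At both genes the groups overlapped.

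How a region became broad differed among members. In 46 regions every library had a single peak, and in 105 at least 1 library had several. A single peak of 2500 bp or more was present in all 6 libraries at 7 regions, in 1 to 5 libraries at 114 and in none at 30. The 7 were Flg, Ppp2r3d, Speer1c, Hnrnpl, Tsc22d2, Nr3c1 and the region of Ddit3 and Mbd6. Tsc22d2, a gene of the TSC22 family, was open over 2822, 2788 and 2806 bp in control and 2847, 2845 and 2844 bp in the HADA libraries. Nr3c1, the glucocorticoid receptor, was open over 2789, 2772 and 2694 bp in control and 2796, 2807 and 2798 bp in the HADA libraries. These widths differed little between the groups, although they did not overlap. The span of the summits over the libraries had a median of 215 bp and was over 1 kb in 46 regions.

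Immediate early genes and leukocyte transcription factors held the highest shares of broad promoters among the 16 gene lists. These lists were drawn up with earlier results of these data known, so their counts are descriptions, to be read against 1.53% of all coding genes with a shared promoter. Of the immediate early and AP-1 genes with a shared promoter, 6 of 23 (26.1%) were broad: Jun, Junb, Jund, Nr4a2, Zfp36l1 and Zfp36l2. Of the leukocyte transcription factors, 5 of 31 (16.1%) were broad: Gfi1, Foxo1, Irf4, Klf13 and Cebpa. Chromatin regulators gave 3 of 22 (13.6%), Kdm2b, Arid1b and Brd2, and NF-kB genes gave 2 of 15 (13.3%), Nfkbie and Birc3. The STAT, SOCS and PIM list gave 1 of 11, Pim1, and the housekeeping list 1 of 12, Ywhaz.

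No gene of the cell type marker lists had a broad promoter. None of 6 B cell, 13 T cell, 3 NK cell, 6 neutrophil and 5 monocyte genes with a shared promoter was broad, and no erythroid or platelet gene had a shared promoter. The NRF2 list gave 0 of 13, the HIF list 0 of 14 and the heat shock list 0 of 9. The widest of the NRF2 list was Txnrd1, thioredoxin reductase, with a merged width of 2374 bp. Of the 13 NRF2 genes 3 were wider in every HADA library (23.1%) and 3 narrower. Their pileup was called lower at 4 and higher at 0 by limma, where 6.64% of other shared promoters were lower. Of the 14 HIF genes 6 had a shared promoter wider in every HADA library (42.9%, against 46.8% of other shared promoters) and 0 narrower. Their pileup was called higher at Pdk1 and lower at Egln3 by limma. The widest was Vegfa at 2323 bp, where the groups overlapped. Epas1, the gene of HIF-2α, named after its values were seen as the largest width difference of the list, had a merged width of 2219 bp and was covered over 1652, 574 and 562 bp in control and 2219, 2167 and 2173 bp in the HADA libraries. Its groups did not overlap, and its summit pileup did not pass the test (log2 difference 0.66, limma adjusted p = 0.0783). Of the genes named by the study, 0 of 5 with a shared promoter were broad. Egr2 had a merged width of 2275 bp, Nfe2l2, the gene of NRF2, 1821 bp, Nfe2 845 bp, Ccr1 773 bp and Il1b 536 bp. Of these 5, limma called the centred pileup lower in HADA at 3 and higher at 0. The 3 were Il1b (log2 difference −2.38), Ccr1 (−1.61) and Nfe2 (−1.16). The study, by its own measure, lists Il1b and Ccr1 among genes with raised accessibility in HADA.

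To show all members by role, 111 of the 162 genes were placed by textbook function in 10 roles, which covered 108 regions, with the calls known. Transcription factors and cofactors took 34 regions. They included 4 Krüppel-like factors (Klf3, Klf10, Klf13 and Klf16), 3 JUN genes, the tumour suppressor Trp53, the circadian repressor Bhlhe40 and the lysosomal regulator Tfeb. Chromatin proteins took 10 regions, such as the cohesin loader Nipbl and Baz2a of the nucleolar remodelling complex. Cytokine and innate immune receptors and signalling took 15, among them Tlr6, Nlrp3, Tnfrsf1a, Ifngr2, Csf2ra and Crlf2. Kinases, phosphatases and signal adaptors took 11, including 3 diacylglycerol kinases (Dgkd, Dgkg and Dgkh). Cytoskeleton and small GTPase regulators took 11, such as profilin (Pfn1) and Sipa1, a RAP1 inhibitor. Glycan enzymes took 8, such as the mannosidases Man1a and Man2a2 and the sialyltransferases St3gal2 and St6galnac6. Antigen presentation, adhesion and other surface proteins took 7, RNA-binding and translation proteins 5, interferon-induced and antiviral proteins 4, and membrane transporters and channels 4. The region of Ddit3 and Mbd6 counts under 2 roles, and the other 43 regions were not placed.

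Width itself chose the regions, so its difference between the groups is given without a test. Covered width is the summed length of the peaks of a library within a region. Its median over the 151 regions was 2345, 1980 and 2178 bp in the control and 2492, 2426 and 2529 bp in the HADA libraries. All HADA medians were above all control medians. The same held for other shared promoters, with medians of 956, 868 and 882 bp in control and 1024, 1016 and 1035 bp in the HADA libraries. Ratios of width are given between the geometric means of the groups, which is the log2 difference turned back. The median ratio of HADA to control was 1.14 over the broad promoters, 1.12 over other shared promoters and 1.09 over all shared regions.

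**Figure D1:**
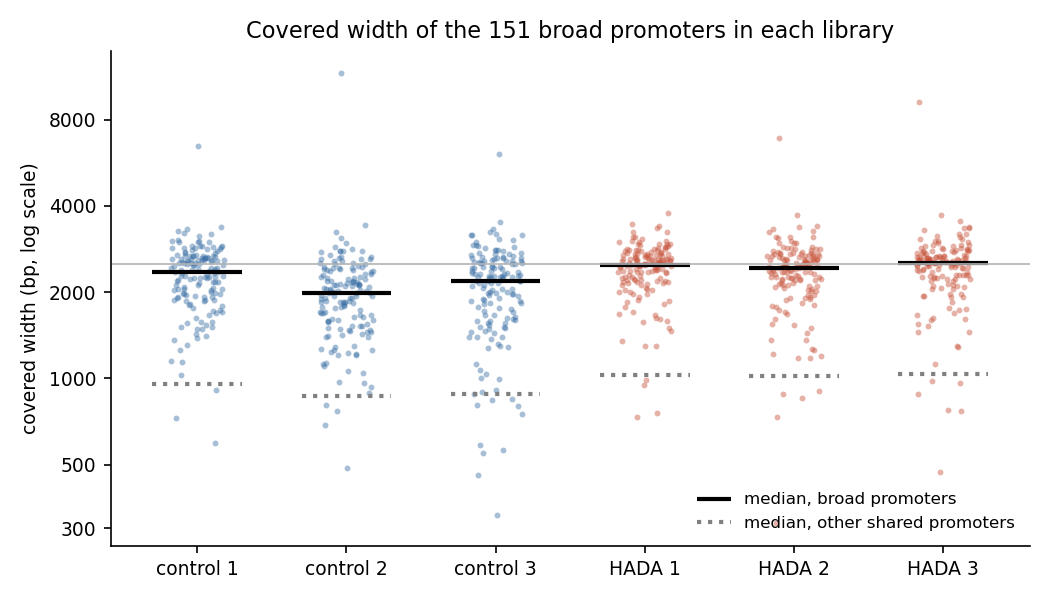
Covered width in bp on a log scale of the 151 broad promoters, 1 point per region and library, in 3 control (blue) and 3 HADA (red) libraries. Black bars are medians, from 1980 to 2529 bp, dotted bars the medians of other shared promoters, from 868 to 1035 bp, and the grey line marks 2500 bp. The HADA medians lie above the control medians in both classes.

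All 3 HADA libraries were wider than all 3 control libraries at 68 of 151 broad promoters (45.0%), where 35.7% of all shared regions and 46.8% of other shared promoters were. The reverse was found at 8 regions (5.3%), where 7.14% of all shared regions and 2.07% of other shared promoters were. With the same number of strongest peaks taken from every library, 67 of 146 regions were wider (45.9%). When each width was first divided by the library's median width over shared regions, 35 regions were wider (23.2%), against 12.9% of all shared regions and 13.3% of other shared promoters, and 26 were narrower (17.2%), against 26.7% and 18.2%. The median ratio then came close to equality, with a log2 difference of 0.02. Without control 3, 75 regions were wider and 13 narrower, without control 2, 72 and 21, and without HADA 1, 72 and 15. Shared regions of 2500 bp or more without a coding start (557) gave other values: 3.23% were wider and 24.8% narrower.

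The definition also depended on the group. Taken alone, the control lists spanned 2500 bp or more at 105 of the 151 regions and the HADA lists at 127. Both did at 86, the control lists alone at 19, the HADA lists alone at 41 and neither at 5. At the 86 regions 34 were wider (39.5%) and 3 narrower (3.49%). At the 38 regions of at least 3000 bp, 11 were wider (28.9%).

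Zfp827, a zinc finger gene (GRCm39 chromosome 8, 79754485 to 79757693), had the largest width difference among regions whose groups did not overlap. It was covered over 1794, 487 and 564 bp in control and 2700, 2227 and 3072 bp in the HADA libraries, with means of 948 ± 733 and 2666 ± 424 bp (SD, n = 3) and a ratio of geometric means of 3.35. Fam43a (chromosome 16, 30418190 to 30420899) was covered over 1251, 689 and 750 bp in control and 2180, 2666 and 2421 bp in the HADA libraries, a ratio of 2.79. All HADA values at these genes lay well above the controls, and control 1 was the widest of the controls at both. Irf4, a factor of B cell and plasma cell differentiation, was covered over 1920, 933 and 586 bp in control and 2344, 2613 and 2787 bp in the HADA libraries, a ratio of 2.53. Mxi1, an antagonist of MYC, was covered over 1361, 1047 and 1399 bp in control and 2798, 2883 and 2815 bp in the HADA libraries, a ratio of 2.25. Here the libraries within each group were close to each other, with SDs of 193 and 45.0 bp. Rubcnl, an autophagy gene, was covered over 1485, 887 and 883 bp in control and 1973, 2492 and 2231 bp in the HADA libraries, a ratio of 2.11. Fam43a, Irf4 and Rubcnl met the limit through the HADA lists alone, so the choice favoured wider HADA values there. These lists spanned 2666, 2787 and 2558 bp, against 1712, 2275 and 1492 bp in the control lists.

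On the narrower side Rnf149, a ubiquitin ligase gene (chromosome 1, 39615610 to 39618648), led. It was covered over 2502, 2317 and 3039 bp in control and 2171, 1199 and 1282 bp in the HADA libraries, a ratio of 0.574. Slfn2, a Schlafen gene needed for T cell quiescence, was covered over 2231, 2235 and 2568 bp in control and 1660, 1270 and 1301 bp in the HADA libraries, a ratio of 0.598. Both genes were narrowest in HADA 2 and HADA 3. Pim1, a survival kinase induced by STAT signalling, was covered over 2680, 2121 and 2716 bp in control and 1849, 1542 and 1518 bp in the HADA libraries, a ratio of 0.655. The region of Ifitm2, an antiviral membrane protein gene, and Gm45717 was covered over 2582, 2575 and 2635 bp in control and 2231, 1440 and 1934 bp in the HADA libraries. Its controls were close to each other, with an SD of 32.8 bp. Nlrp3, an inflammasome sensor of myeloid cells, was covered over 2622, 2295 and 2520 bp in control and 2051, 1952 and 1628 bp in the HADA libraries, a ratio of 0.755. Slfn2, Pim1, the region of Ifitm2 and Nlrp3 met the limit through the control lists alone, so the choice favoured narrower HADA values there. The remaining narrower regions were Speer1c, Csrnp1 and Atxn7l1, named because there were only 8.

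**Figure D2:**
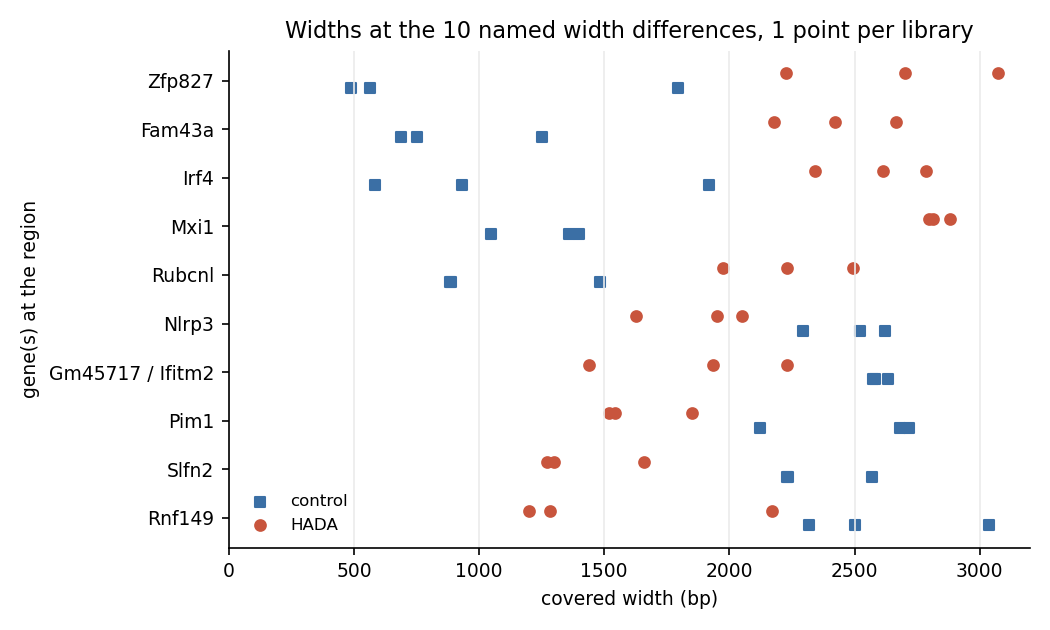
Covered width in bp of the 10 named broad promoters, 1 point per library, control as blue squares and HADA as red circles. The upper 5 rows lie further right in HADA and the lower 5 further left, with no overlap between groups. The rule selected them for that pattern.

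Width values differed among the list members. Jund, an AP-1 gene with a single exon, was covered over 1865, 1502 and 1068 bp in control and 2617, 2626 and 2648 bp in the HADA libraries, so that its whole gene lay in the open region in HADA. Jun was covered over 3140, 2520 and 2657 bp in control and 3462, 3365 and 3350 bp in the HADA libraries. Nr4a2, an orphan nuclear receptor gene, was covered over 2393, 1594 and 1505 bp in control and 3233, 2679 and 2587 bp in the HADA libraries. Groups did not overlap at these 3 genes, and with widths divided by the library median they still did not at Jund and Nr4a2 but did at Jun. Junb overlapped, with 2832, 2370 and 2922 bp in control and 2644, 2403 and 2481 bp in the HADA libraries, as did Zfp36l1 and Zfp36l2. Among the leukocyte factors Irf4, Foxo1 and Klf13 were wider in every HADA library, and Gfi1 and Cebpa overlapped. Divided by the library median, Irf4 alone of these 5 stayed wider. Of the chromatin list, Kdm2b and Arid1b were wider and Brd2 overlapped. Nfkbie, an inhibitor of NF-kB, was covered over 2994, 1758 and 1891 bp in control and 2924, 2974 and 2984 bp in the HADA libraries and overlapped through control 1.

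By role, 21 of 34 transcription factor regions (61.8%) and 8 of 10 chromatin protein regions (80.0%) were wider in every HADA library. Their median ratios were 1.14 and 1.20. The wider share was 45.0% of the 151, 46.8% of other shared promoters and 35.7% of all shared regions. The members hold 41 regions that met the limit through the HADA lists alone, Irf4 among the transcription factors. The choice favoured wider HADA values at such regions, and the shares were not recounted without them. The transcription factor regions had 1 narrower and the chromatin protein regions 0. Of the 15 cytokine and innate immune regions 0 were wider and 2 narrower, with a median ratio of 0.971. Of the 4 interferon-induced and antiviral regions 0 were wider and 2 narrower, with a median ratio of 0.768. The 2 narrower regions of each of these roles (Nlrp3 and Pim1, Slfn2 and Ifitm2) met the limit through the control lists alone. The choice of members thus favoured narrower HADA values at them. Of all shared regions 7.14% were narrower. Wider shares above 45.0% were not limited to transcription factors and chromatin proteins. Antigen presentation, adhesion and other surface proteins had 5 of 7 regions wider (71.4%). Cytoskeleton and small GTPase regulators had 6 of 11 (54.5%), as did kinases, phosphatases and signal adaptors. Membrane transporters and channels had 2 of 4 wider, glycan enzymes 2 of 8, and RNA-binding and translation proteins 0 of 5. These other roles had 0 narrower.

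The direction from the start was read at the 141 regions with coding starts on 1 strand. Measured from the start, the upstream edge of the peaks had a median of −600, −474 and −469 bp in control and −772, −671 and −727 bp in the HADA libraries. The downstream edge had a median of 1733, 1650 and 1604 bp in control and 1853, 1754 and 1772 bp in the HADA libraries. Both edges lay further out in every HADA library. The gain per region had a median of 30.0 bp upstream and 42.7 bp downstream, and it was above 0 at 95 and 90 of the regions. More of the region lay downstream than upstream of the start at 105 of 141 regions (74.5%), and at 76.9% of other shared promoters.

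**Figure D3:**
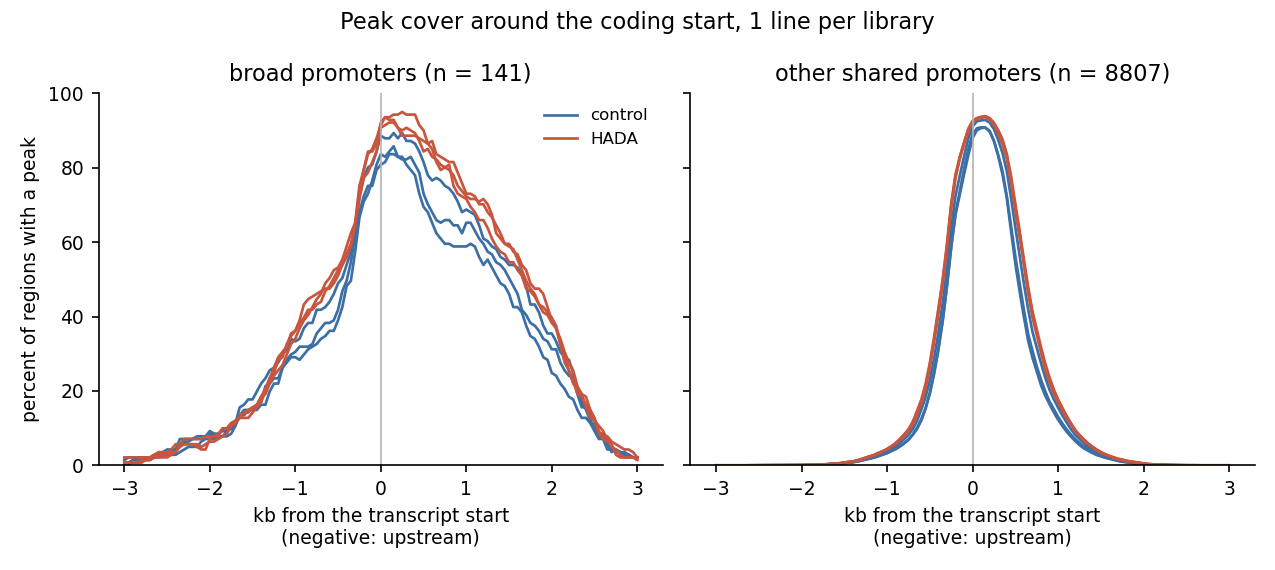
Percent of regions with a peak at each distance from the coding start in kb, 1 line per library, for 141 broad promoters (left) and 8807 other shared promoters (right) with starts on 1 strand. At 1 kb downstream, 58.9 to 68.8% of broad promoters were covered in control (blue) and 71.6 to 73.1% in HADA (red) libraries, against 12.3 to 15.5% and 16.9 to 17.7% of other shared promoters.

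Height was not part of the rule, but it is not independent of it, since the differences of width and height went together over the members (Pearson r of 0.533) and 60 of the 151 regions spanned 2500 bp in the lists of 1 group alone. Entry through the group where a region was high favours a difference, so counts over the members are descriptions. For the same reason no p is given for the named regions that entered through the group where they were higher. The summit pileup is the number of fragments stacked at the top of a peak. It was compared on a log2 scale centred on the library's median shared region, with limma over all 23013 shared regions and Benjamini-Hochberg adjustment at 0.05. Of the 151 broad promoters 19 (12.6%) were higher in HADA, against 17.5% of all shared regions and 18.5% of other shared promoters. Lower in HADA were 23 (15.2%), against 23.4% and 6.64%. The median log2 difference was −0.13 over the broad promoters, 0.11 over other shared promoters and −0.04 over all shared regions. The 86 regions that both groups' lists spanned had 11 higher (12.8%) and 13 lower (15.1%), with a median of −0.15. The 41 of the HADA lists alone had 5 higher and 3 lower, the 19 of the control lists alone 2 and 6. Relative to the genome background the median shared region was 0.40 higher in HADA on the log2 scale, and centring sets that shift to 0. Divided by the background instead, 32 broad promoters were higher and 12 lower, and their median difference turned to 0.26.

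The counts depended on single HADA libraries. Without HADA 1 there were 8 higher and 14 lower, without HADA 2, 3 and 6, and without HADA 3, 6 and 10. Without control 3 there were 21 higher and 21 lower, and the median difference turned to 0.02. At each of the 19 regions called higher and 23 called lower, all HADA values lay on 1 side of all control values.

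Tubb2b, a beta tubulin gene (chromosome 13, 34313468 to 34316113), rose most of the members. Its summit pileups were 44, 25 and 11 in control and 163, 147 and 156 in the HADA libraries, or 0.746, 0.455 and 0.22 times the median shared region against 1.73, 1.86 and 1.88 times. The log2 difference was 2.12 ± 0.40 (SE; limma adjusted p = 0.0105). Cxxc5, a CXXC zinc finger gene, followed with pileups of 42, 24 and 12 in control and 129, 100 and 106 in the HADA libraries (log2 difference 1.63, limma adjusted p = 0.0139). Cxxc5 spanned the limit only with the lists of both groups merged. Irf4 entered through the HADA lists alone, at 2787 bp against 2275 bp in the control lists, and its pileups, 58, 57 and 18 in control and 174, 159 and 166 in the HADA libraries, are a description (log2 difference 1.45). At the class II MHC genes H2-Aa and H2-Eb1 they were 118, 114 and 41 in control and 366, 329 and 326 in the HADA libraries (1.41, adjusted p = 0.0184 in the limma fit). Control 3 was the lowest library at these 4 regions, as it was in the summed B cell marker pileup. Without control 3 the calls of Tubb2b, Cxxc5 and H2-Aa held. Gfi1, a repressor active in both lymphoid and myeloid cells, had pileups of 65, 37 and 41 in control and 159, 158 and 135 in the HADA libraries (1.06, adjusted p = 0.012 in the limma fit). Foxo1, a factor of resting lymphocytes, rose by 0.95 (adjusted p = 0.0104 in the limma fit). Without HADA 2 the calls of Cxxc5, H2-Aa with H2-Eb1 and Gfi1 were lost, with differences of 1.65, 1.38 and 0.97 and limma adjusted p of 0.0519 to 0.0642, and H2-Aa was also lost without HADA 3 (1.42, limma adjusted p = 0.0522). Irf4 missed the threshold without any 1 of the HADA libraries, with differences of 1.43 to 1.49. The calls of Tubb2b and Foxo1 held without any 1 library. With the summits of a region summed in place of the highest, Gfi1 dropped to 0.62 (limma adjusted p = 0.256), Cxxc5 to 1.10 (limma adjusted p = 0.121), H2-Aa to 1.05 (limma adjusted p = 0.107) and Foxo1 to 0.70 (limma adjusted p = 0.0796), and these calls were lost, while that of Tubb2b held.

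Nlrp3 (chromosome 11, 59432078 to 59434699) had the lowest difference of the members. It entered through the control lists alone, at 2622 bp against 2051 bp in the HADA lists, so its values are a description. Its summit pileups were 178, 193 and 313 in control and 148, 78 and 63 in the HADA libraries, or 3.02, 3.51 and 6.26 times the median shared region against 1.57, 0.987 and 0.759 times. The log2 difference was −1.94 ± 0.35 (SE). Among the regions that both groups' lists spanned, the lowest was at Tnfrsf1a. Tnfrsf1a, the gene of a TNF receptor (chromosome 6, 125326344 to 125328996), had pileups of 231, 199 and 360 in control and 181, 103 and 89 in the HADA libraries (−1.75, adjusted p = 0.0103 in the limma fit), while its width differed little, with a ratio of 0.971. Dach1 had pileups of 39, 29 and 45 in control and 26, 13 and 19 in the HADA libraries (−1.64, adjusted p = 0.00899 in the limma fit). The region of Ifitm2 and Gm45717 had 297, 283 and 541 in control and 267, 165 and 139 in the HADA libraries (−1.61), and it too entered through the control lists alone, at 2641 bp against 2496 bp. In all 4 regions control 3 was the highest library, as it was in the summed neutrophil marker pileup. Without control 3 the calls of Tnfrsf1a and Dach1 held. Speer1c also fell (−1.28, adjusted p = 0.00863 in the limma fit), with the limit on repeated sequence given above. Cebpa, a factor of the myeloid lineage, had a log2 difference of −1.04, or −0.65 when pileups were divided by the background, where it missed the threshold. It also entered through the control lists alone, at 2576 bp against 2444 bp. Without HADA 2 the region of Ifitm2 missed the threshold (−1.59). The marker sums moved with these values, and their part was not tested.

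**Figure D4:**
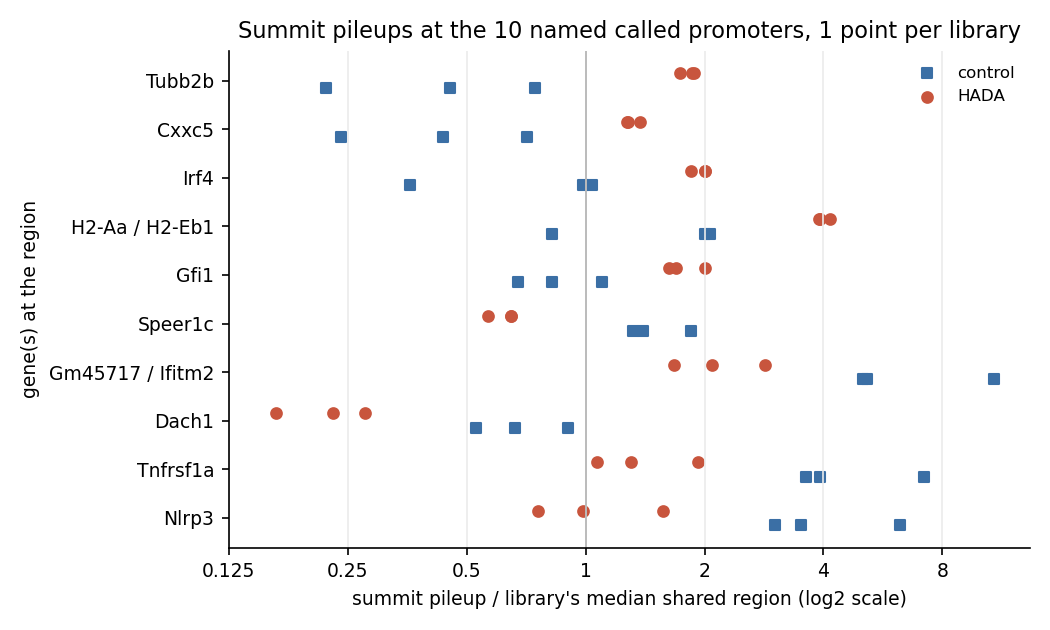
Summit pileup of the 10 named called promoters divided by the library's median shared region, on a log2 scale, 1 point per library, control as blue squares and HADA as red circles. The upper 5 rows lie further right in HADA, from Gfi1 to Tubb2b, and the lower 5 further left, from Speer1c to Nlrp3.

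By role, 8 of the 15 cytokine and innate immune regions (53.3%) were called lower and 1 higher (6.67%), against 23.4% and 17.5% of all shared regions and 15.2% and 12.6% of the 151, with a median log2 difference of −0.90. Divided by the background, 5 were lower and 1 higher, with a median of −0.50, and Csf2ra (−0.54), Trim8 (−0.27) and Il18bp (−0.63) missed the threshold. The 8 included the receptors Tnfrsf1a, Tnfrsf14, Ifngr2, Tlr6 and Csf2ra, and the 1 higher was Map3k1 (0.89). Without HADA 2 these 5 receptors kept their direction, and all but Tnfrsf1a missed the threshold. Of the 8 lower regions 3 (Nlrp3, Csf2ra and Trim8) entered through the control lists alone, where they were higher. The choice of members thus favoured part of the share of 53.3%. Of 34 transcription factor regions 4 were higher (Irf4, Gfi1, Foxo1 and Rreb1) and 2 lower (Dach1 and Cebpa), and 9 and 1 when divided by the background. Irf4 and Cebpa entered through the group where they were higher. None of the 10 chromatin protein regions was called by limma, with differences from −0.54 to 0.44, and 1 had an unadjusted p under 0.05. In the immediate early and AP-1 list 0 of the 6 broad regions were called by limma, and 0 had an unadjusted p under 0.05. Over all 23 shared promoters of that list 8 were called lower and 0 higher by limma, and the 8, among them Fosl2 (−1.38), Ier3 (−1.17) and Fos (−0.75), were not broad. That the broad and other promoters of the list differ was not tested. Jun had pileups of 349, 292 and 322 in control and 588, 448 and 442 in the HADA libraries, and its centred log2 difference was −0.03 (limma adjusted p = 0.884). Glycan enzymes had 3 higher of 8 regions (Man1a, St3gal2 and Ggta1), and transporters had 2 of 4, the amino acid carriers Slc1a5 (0.98) and Slc38a1 (0.61). The calls of Man1a, St3gal2, Ggta1, Slc1a5 and Slc38a1 were lost without any 1 of the HADA libraries, and Man1a entered through the HADA lists alone. With summed summits Slc1a5 dropped to 0.33 (limma adjusted p = 0.258) and Ggta1 to 0.35 (limma adjusted p = 0.253). Ggta1 was also lost without control 2 or control 3 (limma adjusted p = 0.103 and 0.0856), and St3gal2 without control 1 or control 3 (limma adjusted p = 0.058 and 0.0514). The roles were drawn up with these calls known and carry no test.

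Calls of height and differences of width overlapped in part. Of the 68 wider regions 9 were also called higher, 1 lower (Erbin, −0.62) and 58 were not called. The call of Erbin was lost without any 1 of the HADA libraries, and its difference was −0.23 when divided by the background and −0.38 with summed summits. Of the 8 narrower regions 5 were called lower and 0 higher. These counts stand beside 17.5% of all shared regions called higher and 23.4% lower, and the choice of members favoured part of them. Of the 9, 4 (Irf4, Fam43a, Limd2 and Man1a) entered through the HADA lists alone. Of the 5, 3 (Nlrp3, Ifitm2 and Slfn2) entered through the control lists alone. Across the 151 members the log2 differences of width and of centred pileup had a Spearman rho of 0.482 beside the Pearson r of 0.533 above, a description over regions that share the 6 libraries and their depth. Mxi1 was wider by a ratio of 2.25 with a pileup difference of −0.28 (limma adjusted p = 0.263). Jund was wider by a ratio of 1.83 with −0.22 (limma adjusted p = 0.448), and Sipa1 by 2.03 with −0.29 (limma adjusted p = 0.261).

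**Figure D5:**
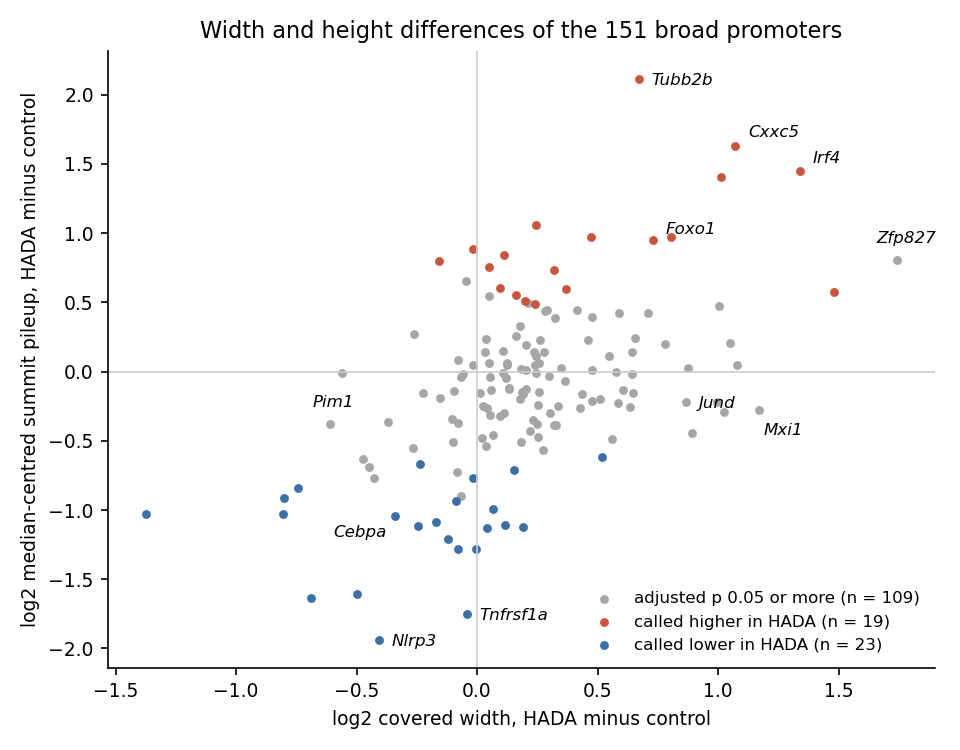
Log2 difference of covered width (x) and of median-centred summit pileup (y), HADA minus control, 1 point for each of the 151 broad promoters. Red points are the 19 called higher, blue the 23 called lower and grey the other 109. Irf4, Cxxc5 and Foxo1 were both wider and higher, while Mxi1 and Jund were wider with a height difference near 0.

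The authors' fold enrichment over local background gave a second reading of height. Local background at the summit was 23.2 in broad promoters, 10.7 in other shared promoters and 6.58 in all shared regions. These are medians over the libraries of each library's median. The median fold per library was 5.70 to 6.25 in broad promoters and 9.92 to 12.1 in other shared promoters, although the median pileups were 113 to 221 and 89 to 184. Ranked by fold within each library, 8 broad promoters were higher in HADA (5.3%, against 6.48% of all shared regions) and 1 lower (0.662%, against 4.92%), by limma with adjusted p under 0.05. Those higher included Pim1, Rnf149, Gfi1, Pstpip2, Cdc42se1 with Mllt11, Slc38a1 and Rreb1, and the 1 lower was Lonrf1. The 2 readings agreed in direction at 5 regions called by both and were opposite at 2. At Rnf149, among the opposite ones, the centred pileup fell by 0.91 on the log2 scale (limma adjusted p = 0.0296) while its fold rank rose by 0.92 normal scores (limma adjusted p = 0.0402), and the region was narrower in every HADA library. The pileup call of Rnf149 was lost without any 1 of the HADA libraries (limma adjusted p of 0.0713 to 0.0916), as were all fold rank calls. Divided by the background its pileup difference was −0.52 (limma adjusted p = 0.138), so the opposite calls at Rnf149 depend on the centring.

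Sequence was not used by the rule, although values over a whole region depend on its width. Broad promoters had a median GC content of 58.1% and 5.5 CpG per 100 bp over the whole region, against 60.0% and 6.51 over the shorter other shared promoters. At 50 bp from the summit, on the side of higher coordinates, the mean was 7.27 CpG per 100 bp in broad and 8.55 in other shared promoters. At 950 bp on that side it was 4.16 and 1.92, so CpG density was lower near the summit and higher in the flank of broad promoters. A region had genes on both strands in 6.62% of cases, against 11.6%.

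In the 301 bases around the summit, 53.0% of broad promoters held a GC box, against 66.7% of other shared promoters. The CCAAT box was found in 27.2% and 31.0%, the ETS core in 18.5% and 29.8%, and the cAMP response element in 3.31% and 3.01%. The AP-1-like pattern, with any base in its middle, was found in 7.28% and 3.78%. These shares are descriptions without a test. Genes with a single exon took part in 7 of the broad promoters (4.64%), against 2.4% of other shared promoters: Jun, Junb, Jund, Cebpa, Fam43a, Thbd and Sfn. The region covered all of Jund and Sfn.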

How the data were processed

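ATAC-seq peak lists of 3 control and 3 HADA libraries were used, grouped by the labels. Per the labels and methods, the authors used FastQC, Trimmomatic, Bowtie2, Picard and MACS2 on GRCm39, calling each library by itself. Tool versions, MACS2 options and any Tn5 shift are not given in the sources used here. The deposited lists give each peak a fold ratio of its summit over local background, −log10 p-values and q-values, and a score made from the latter. They hold no read counts, so the summit pileup and background were solved from the fold and −log10 p-value, to within 0.05 of the deposited value for 100% of peaks.

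Peaks were merged in Python 3.11.15, starts came from GENCODE M39, and limma 3.58.1 in R 4.3.3 compared the groups over 23013 shared regions. The limma steps were tested on simulated data. Alternatives are given in the closing section. The summit within 1 kb could come from any library. The members, the lists and the roles were chosen with earlier results of these data known. Named were the 10 widest regions, the 5 largest width differences in each direction without overlap, the 5 largest called pileup differences in each direction, list members, the genes named by the study, and the 3 regions on each side of the width limit. A few other genes were named after their values were seen. Replicate numbers did not pair the samples: same-numbered libraries had correlations of −0.10, 0.09 and −0.38 between their deviations from the group means. With 3 libraries against 3 an exact permutation test cannot go below 0.1, so none was run. Some regions that enter the counts are not reported here by name.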

Additional observations from a re-analysis of the deposited data

How the results depend on the processing

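Of the counts and medians of the broad promoters under alternatives, 67 stayed within 1.5 times or the replicate spread, 40 moved and 2 reversed. The median log2 pileup difference, −0.13, turned to 0.2607 when divided by the genome background and to 0.022 without control 3, and leaving out 1 library gave −0.2368 to 0.022. For the pileup, division by the genome background gave 32 higher and 12 lower and summed summits gave 7 higher, while leaving out 1 library gave 3 to 21 higher and 6 to 28 lower. For the fold rank, leaving out 1 library gave 0 to 5 higher and 0 to 4 lower; higher calls became 4 with the same number of strongest peaks, 5 with an intensity trend and 5 on the log2 fold, and lower calls became 13, 0 and 2, and 4 with a −log10 q of at least 5. With the replicate number as a block, pileup calls were 13 higher and 20 lower and fold rank calls 0 and 0 (20 and 8 at an unadjusted p under 0.05, limma). For width, dividing by the library median gave a median log2 difference of 0.0222, 35 wider and 26 narrower; regions of at least 3000 bp gave 11 wider, those of 2500 bp in each group's lists alone gave 3 narrower, and leaving out 1 library gave 8 to 21 narrower and 70 to 83 wider.

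Of the 10 named pileup calls 3 (Irf4, Nlrp3 and Ifitm2) entered through the group where they were higher and are not counted here. The other 7 held under the replicate block, the background scaling, the intensity trend and without each control library. Without HADA 2, 3 were no longer called, without HADA 3, 1, and with summed summits 3, Gfi1, Cxxc5 and H2-Aa (limma). Regions spanned by each group's lists alone, chosen for the pileup after seeing the data, gave 11 higher and 13 lower of 86. Leaving out repeated regions was also chosen after seeing the data and gave 65 wider, 7 narrower, 18 higher and 20 lower of 138. The causes were not tested. Depth is known here from the background pileup alone, so total reads and peaks below the callers' limit could not be compared.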

Other observations

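Chromosome X was outside the rule and held 857 shared regions, 289 of them at coding starts. Of these, 4 were at least 2500 bp wide. Bcor, a corepressor that works with BCL6, had a merged width of 3149 bp and was covered over 1834, 2048 and 888 bp in control and 2839, 2324 and 3149 bp in the HADA libraries. All HADA values at Bcor lay above all control values. Tbl1x, a subunit of the NCOR corepressor complex, was covered over 1589, 1330 and 1344 bp in control and 1822, 1874 and 2191 bp in the HADA libraries, again without overlap. Spaca5 went the other way, with 1882, 2614 and 2045 bp in control and 1260, 1711 and 1012 bp in the HADA libraries. Tmem164 overlapped, with 2610, 1439 and 2062 bp in control and 2109, 1553 and 1698 bp in the HADA libraries. These widths were not tested.

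Shared regions of 2500 bp or more without a coding start numbered 557. Their local background had a median of 2.60, against 23.2 in the broad promoters. Of these 557 regions 423 (75.9%) were called lower in HADA and 14 (2.51%) higher by limma, with a median log2 pileup difference of −1.27. Control 2 had the highest median pileup among the libraries at these regions, at 98, against 39 to 50 in the others.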
